A study of Mus musculus with 29 samples.

Results

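Lymph nodes and tertiary lymphoid structures (TLS) of the same disease stage were compared across genes. The libraries were 3 of renal draining lymph node and 3 of TLS, 6 of the 14 libraries in the deposited table (29 samples are in the labels). All mice were of the strain (NZBxNZW)F1 (NZB/W), a cross that develops lupus-like nephritis without any engineered allele or treatment, and all 6 libraries were labelled proteinuric. Lymph nodes were from mouse H6 (aged 39 weeks), mouse H20 (36 weeks) and mouse H117 (32 weeks). TLS were from mouse H6, mouse H20 and mouse H115 (25 weeks). Mice H6 and H20 thus gave both tissues, and mice H117 and H115 each gave 1 of them. Alternatives also used 4 lymph node libraries of other stages, 3 of antibody-positive mice (28, 29 and 18 weeks) and 1 of a young mouse (4 weeks). Included were all genes whose mean over the 6 libraries reached 5, which were 7112 of the 13982 genes listed. TLS were cut by hand out of the kidney under a loupe, so a TLS library can hold the tissue around the aggregate, and 4 kidney libraries of mice H6, H20, H115 and H117 served as the reference for kidney RNA.

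A lymph node sorts its cells into B-cell follicles, a T-cell zone and sinuses. Naive lymphocytes enter from the blood through high endothelial venules, dendritic cells and T cells are drawn into the T-cell zone by the chemokines CCL21 and CCL19, B cells are drawn into follicles by CXCL13, and lymph passes along sinuses lined by lymphatic endothelium and by macrophages that take up particles. A TLS is an aggregate of the same lymphocytes that forms in a chronically inflamed organ. It has no capsule and lies within the organ's own tissue. In the lupus-prone kidney such aggregates lie near the pelvic wall, whose inner lining is the urothelium, and near large vessels.

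The libraries had between 343825 and 435906 reads in lymph node and between 378967 and 443379 in TLS. A deposited value is 1 more than the number of reads, divided by a size factor for each library, so a gene without a read has a value between 0.786 and 1.45 in these 6 libraries. The share of reads on ribosomal RNA genes was 31.9% for lymph node of mouse H6 and 21.3% for TLS of mouse H115, against at most 2.94% in each other library of the comparison, and lymph node of mouse H6 had the fewest genes with a read (8493, against 10244 to 11766). In the kidney reference, that share was 55.6% for mouse H117, with 7585 genes that had a read, and at most 5.14% for the others. Genes of the mitochondrial genome took 2.55% to 5.29% of the reads in lymph node and 19.3%, 15% and 4.54% in TLS of mice H115, H20 and H6, respectively. Spearman correlations across genes were 0.767 to 0.871 among lymph nodes, 0.664 to 0.772 among TLS, and 0.404 to 0.754 between the tissues. Summed over the B-cell marker list, the value was 985 to 1432 in lymph node and 592 to 1064 in TLS, against 29.0 to 61.6 in kidney, so both tissues held the lymphoid transcripts that their labels name.

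The sequences before the transcription start of 6 genes are given first, as these genes lead the tissue-restricted groups described in the text. Umod is expressed by tubule cells, Upk3a by urothelium, Cd209b and Marco by macrophages, Ccl21a by lymph node stroma and Glycam1 by high endothelial venules. Each is the 250 bases before the start in RefSeq, build GRCm38.p6, read 5′ to 3′ on the strand of the gene. Umod lies on the minus strand (chr7:119479263-119479512), Upk3a on the plus strand (chr15:85016891-85017140), Marco on the minus strand (chr1:120505025-120505274), Cd209b on the minus strand (chr8:3926842-3927091), Ccl21a on the minus strand (chr4:42773992-42774241) and Glycam1 on the minus strand (chr15:103565082-103565331). Capitals mark GTTAAT, the conserved hexamer of sites bound by the tubule factor HNF1, and GAGGAAG, a core bound by the myeloid factor PU.1, on either strand (ATTAAC and CTTCCTC).
Umod: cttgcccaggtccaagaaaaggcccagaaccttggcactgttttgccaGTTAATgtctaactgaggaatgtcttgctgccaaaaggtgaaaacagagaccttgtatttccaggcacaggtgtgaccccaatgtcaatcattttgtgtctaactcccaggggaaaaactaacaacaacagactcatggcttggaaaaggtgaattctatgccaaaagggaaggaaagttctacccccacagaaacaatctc
Upk3a: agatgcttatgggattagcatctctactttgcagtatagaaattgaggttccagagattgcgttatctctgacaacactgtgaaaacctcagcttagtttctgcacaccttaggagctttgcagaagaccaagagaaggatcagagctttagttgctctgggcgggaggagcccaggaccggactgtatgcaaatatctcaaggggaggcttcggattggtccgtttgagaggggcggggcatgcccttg
Cd209b: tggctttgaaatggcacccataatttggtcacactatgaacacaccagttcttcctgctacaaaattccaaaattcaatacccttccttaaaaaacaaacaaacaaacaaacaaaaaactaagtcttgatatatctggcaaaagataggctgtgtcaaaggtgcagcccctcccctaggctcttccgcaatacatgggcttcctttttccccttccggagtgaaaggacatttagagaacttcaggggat
Marco: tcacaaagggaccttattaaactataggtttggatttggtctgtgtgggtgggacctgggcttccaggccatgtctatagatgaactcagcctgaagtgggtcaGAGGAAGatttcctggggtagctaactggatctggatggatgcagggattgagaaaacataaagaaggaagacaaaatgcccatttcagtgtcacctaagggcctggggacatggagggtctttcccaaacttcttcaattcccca
Ccl21a: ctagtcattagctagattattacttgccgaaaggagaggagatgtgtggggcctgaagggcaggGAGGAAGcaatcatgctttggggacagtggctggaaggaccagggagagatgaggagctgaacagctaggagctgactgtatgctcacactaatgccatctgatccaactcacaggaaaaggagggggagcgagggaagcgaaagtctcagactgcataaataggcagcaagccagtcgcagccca
Glycam1: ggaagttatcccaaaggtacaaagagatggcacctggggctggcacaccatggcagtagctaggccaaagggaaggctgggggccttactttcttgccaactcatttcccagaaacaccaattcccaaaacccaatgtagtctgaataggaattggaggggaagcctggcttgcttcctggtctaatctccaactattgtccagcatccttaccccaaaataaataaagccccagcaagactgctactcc

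GTTAAT began 202 bases before the start of Umod. GAGGAAG began 146 bases before the start of Marco and 186 before that of Ccl21a. The windows of Upk3a, Cd209b and Glycam1 held neither, nor did that of Kap, which had the largest fold change and whose window is not shown. RefSeq gave such a window for 4970 of the 7112 genes tested. GTTAAT was found in 5.01% of these windows (249 of 4970) and in 7.49% of the windows of all 27025 genes. It was found in 14.6% (37 of 254) of the genes higher in TLS whose kidney mean was at or above the TLS mean, in 0 of 22 of those whose kidney mean was under 50% of the TLS mean, and in 7.27% (4 of 55) of the genes higher in lymph node. GAGGAAG was found in 13.9% of the windows of genes tested and in 12% of all windows. The shares were 11.9% (36 of 303) for genes higher in TLS and 20.0% (11 of 55) for genes higher in lymph node. The motifs do not overlap each other. These are matches of letters and were not tested as binding sites.

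Of the 7112 genes, 518 were differentially expressed (DE) at an adjusted p under 0.05 (limma on log2(value + 1), Benjamini-Hochberg), 7.28% of those tested. TLS was the higher tissue for 429 genes (6.03%) and lymph node for 89 (1.25%), so that TLS held 82.8% of the DE genes. At an unadjusted p under 0.05 there were 1444 genes, 793 of them toward TLS and 651 toward lymph node. The libraries of the tissues did not overlap for 1740 genes, 24.5% of those tested, which include all 518. Over all genes tested, the log2 fold change of lymph node against TLS had a median of 0.14. As mice H6 and H20 gave both tissues, the mouse was also used as a replicate block, with which 316 genes were DE toward TLS and 36 toward lymph node. The correlation of libraries of the same mouse in that fit was -0.441, and only mice H6 and H20 bear on it. A negative correlation widens the error of a difference between tissues, so a lost call cannot be read as an effect of the mouse. DE genes of the text that lost the call with the block are named as such, with that adjusted p. The p-values measure the spread between these 3 and 3 libraries, and as these are bulk samples, fewer cells of a type and less RNA per cell cannot be told apart.

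The genes higher in TLS differed by more than those higher in lymph node. Their median absolute log2 fold change was 2.78 against 1.77, or 2.07 against 1.73 with genes of at most 3 reads in each library of the lower tissue set at their lower bound. A total of 313 of the 429 genes did not exceed 3 reads in any lymph node library, compared with 21 of the 89 that did not exceed 3 reads in any TLS library. The filter on the mean over all 6 libraries lets such genes pass through 1 tissue alone, and in all 457 tested genes did not exceed 3 reads in any lymph node library and 69 in any TLS library.

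**Figure D1:**
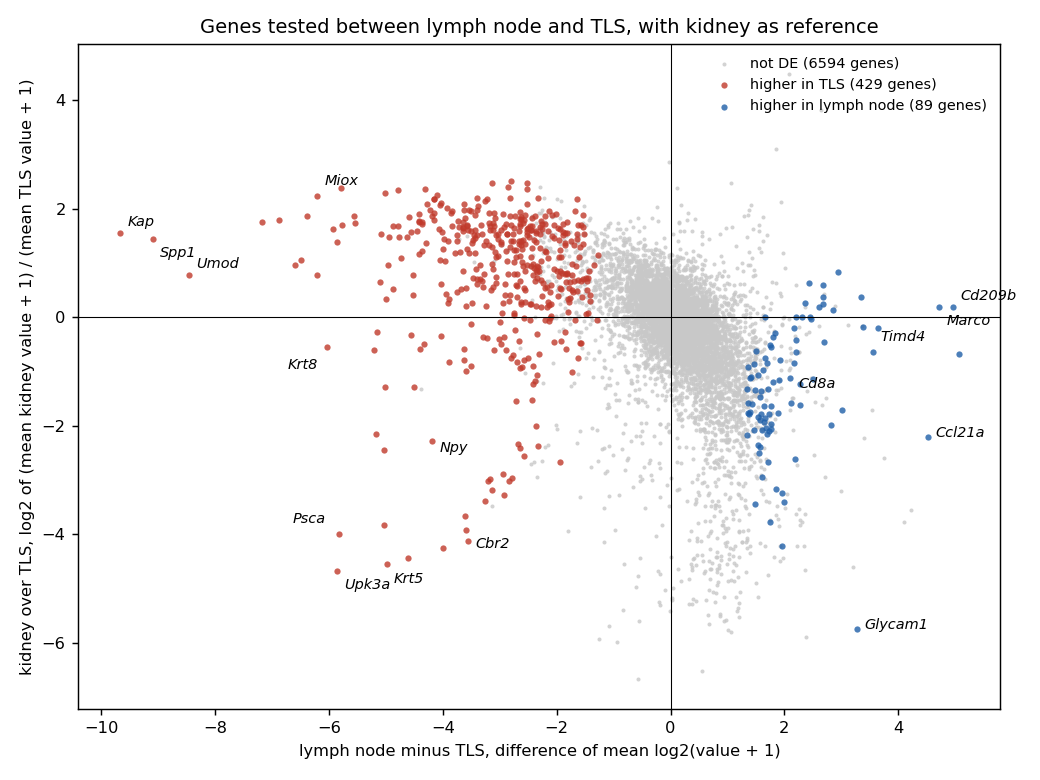
Log2 of kidney over TLS from the means of the libraries (vertical axis) against the log2 difference between lymph node and TLS (horizontal axis, negative where TLS is higher), 1 point per gene for the 7112 genes tested and DE genes in colour. Of the 429 genes higher in TLS on the left, 348 lie at or above the horizontal line, where kidney equals TLS, and the urothelial genes Upk3a, Psca and Krt5 lie far below it.

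Kidney served to place these genes. Of the 429 genes higher in TLS, 427 (99.5%) had a higher mean in kidney than in lymph node, against 40.9% of all genes tested, and 348 (81.1%) had a kidney mean at or above the TLS mean, against 44.3%. TLS thus lay between lymph node and kidney for 348 genes and above both for 81. The share of 99.5% was largely set by the call, as 313 of the 429 genes did not exceed 3 reads in any lymph node library. A gene without a read also has a value of 1.775 in kidney of mouse H117, against 0.809 to 1.45 in lymph node. None of the 89 genes higher in lymph node had a kidney mean above the lymph node mean. TLS lay between lymph node and kidney for 77 of them. For the other 12 the kidney mean was above that of TLS, but 11 had at most 10 reads in each kidney library, 3 (Cd209b, Marco and Vtn, the last with adjusted p = 0.0757 with the block) had no read in any TLS or kidney library, and for none was every kidney library above every TLS library. Without kidney of mouse H117, 420 of the 429 had a higher mean in kidney than lymph node had, and 357 had a kidney mean at or above the TLS mean. Kidney RNA in the TLS libraries was measured over the 419 genes whose kidney mean was at least 20 and 10 or more times that of lymph node. The TLS value of these genes was, as a median, 51.4% of the kidney mean in mouse H115 (quartiles 37.0 and 71.8), 26.8% in mouse H20 (19.5 and 37.1) and 16.5% in mouse H6 (10.6 and 25.9). Over the 130 genes with 50 times or more, the medians were 52.9%, 24.9% and 12.6%. Against the kidney of the same mouse they were 35.2%, 39.2% and 20.7%, so the order of mice H115 and H20 depended on the reference. Without kidney of mouse H117 they were 50.6%, 27.0% and 16.2% (440 genes). The part of the surrounding kidney tissue in the genes higher in TLS was not tested beyond these values. The highest TLS library was that of mouse H115 for 296 of the 429 genes, that of mouse H20 for 69 and that of mouse H6 for 64.

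A proximal tubule gene had the largest log2 fold change. Kap, an androgen-regulated protein made by proximal tubule cells (ENSMUSG00000032758, chr6:133849851-133853762), had values of 5910, 3361 and 732 in TLS of mice H115, H20 and H6. In lymph node of mice H117, H20 and H6 it had 0.809, 2.84 and 2.90, at most 2 reads in a library. Every TLS library was above every lymph node library, and TLS was at least 767-fold higher (mean 3334 ± 2589, SD, n = 3, adjusted p = 6.55e-05). Kap was higher still in kidney, with values between 4482 and 13990.

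Miox, which starts the breakdown of inositol, had 159, 218 and 98.4 in TLS of mice H115, H20 and H6 and no read in lymph node (at least 36.2-fold, adjusted p = 1.28e-05). Of the 19 proximal tubule genes tested, 15 were DE and higher in TLS (against 6.03% of all genes tested) and none was higher in lymph node. However, 13 of the 19 had no more than 3 reads in any lymph node, so that the filter set their direction. The median log2 fold change of TLS over lymph node was 3.09 for the list, or 2.35 with 13 genes at their lower bound, against -0.14 over all genes tested. Cubn (1.94), Slc5a2 (2.30), Pck1 (2.46) and Cyp2e1 (1.19) were above in TLS on the log2 scale but not DE. The summed value of the list was 9052, 6240 and 2022 in TLS of mice H115, H20 and H6, between 65.6 and 131 in lymph node and between 15010 and 25740 in kidney. The order of the TLS libraries in this sum was that of their median kidney percentages against the kidney mean. Both measures come from the same libraries and share genes such as Kap, so they are not independent.

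Further along the nephron the same direction was found. Umod encodes uromodulin, the main protein of normal urine, which is made by the thick ascending limb (ENSMUSG00000030963, chr7:119462711-119479282). Its values were 1010, 539 and 697 in TLS of mice H115, H20 and H6, while no lymph node library had a read. The TLS libraries lay close together (749 ± 240, SD, n = 3), and TLS was at least 172-fold higher (adjusted p = 1.96e-06). In kidney Umod ranged from 705 to 2705. Of the 7 thick ascending limb genes tested, 6 were higher in TLS (against 6.03% of all genes tested). Among them was Kcnj1, the apical potassium channel, which was at least 7.47-fold higher. Egf had a log2 fold change of 3.58 (adjusted p = 0.0704). The 7 genes had a median of 4.03, or 3.47 at their bound, and all passed the filter through TLS alone.

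Of 13 collecting duct genes in the table, 8 were under the filter. The 5 that passed were DE and higher in TLS (3 with the replicate block), against 6.03% of all genes tested. However, none of the 5 exceeded 3 reads in a lymph node, so that the filter set their direction. Aqp2, the water channel regulated by vasopressin, had values of 45.8, 62.1 and 147 in TLS of mice H115, H20 and H6 and between 37.3 and 103 in kidney. Here TLS of mouse H6, which had the lowest values of Kap, was the highest. The distal convoluted tubule list had 2 genes tested, of which Slc12a3, the thiazide-sensitive cotransporter, was at least 4.63-fold higher in TLS and the kinase Wnk1 was not DE (log2 fold change 0.19). Podxl, the 1 podocyte gene that passed the filter, is also made by endothelium and was at least 3.09-fold higher in TLS.

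The families of transporters and enzymes leaned toward TLS. Of 108 solute carriers tested, 25 were higher in TLS (against 6.03% of all genes tested) and none in lymph node. Their median log2 fold change was 0.57. The filter set the direction of genes with at most 3 reads in each library of the lower tissue. These were 36 of the solute carriers, 8 of the cytochrome P450 genes, 6 of the claudins and 2 of the proton pump subunits named below. Slc22a12, the urate transporter URAT1, had values of 78.5, 56.6 and 39.0 in TLS of mice H115, H20 and H6 without a read in lymph node (at least 13.1-fold). Slc34a1, the phosphate transporter of the proximal tubule, was at least 16.9-fold higher. Of 12 cytochrome P450 genes, 8 were higher in TLS, with Cyp2j5 at least 14.5-fold and Cyp4a10 at least 10.0-fold. Cyp4a10, Cyp4a31 and Cyp2a4 have near-identical relatives, between which the counting could split reads. Of 7 claudins, which seal the epithelial junction, 6 were higher in TLS, and Cldn2 of the leaky proximal tubule junction was at least 9.84-fold higher. None of the 42 complex I genes and none of the 29 ATP synthase and cytochrome oxidase genes was DE, against 7.28% of all genes tested. Their medians were 0.38 and 0.32, and 36 and 24 of them, respectively, had a log2 fold change toward TLS. Of 15 subunits of the vacuolar proton pump, Atp6v1b1 and Atp6v0a4 were higher in TLS (at least 2.46-fold and 2.37-fold, the latter with adjusted p = 0.0557 with the replicate block), and these are the subunits of acid-secreting cells.

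Spp1 of the tubular injury list was also higher in TLS. It encodes osteopontin, a matrix protein of injured tubules and of macrophages (ENSMUSG00000029304, chr5:104435118-104441050). It had values of 662, 3591 and 1761 in TLS of mice H115, H20 and H6. In lymph node it had 0.809, 4.74 and 1.45 in mice H117, H20 and H6. The log2 fold change was 9.10 ± 0.65 (SE, adjusted p = 3.67e-05). Kidney of mice H6 and H20 had 11630 and 9144, and kidney of mice H115 and H117 had 753 and 318. Of the 8 genes tested in that list, 6 were higher in TLS (against 6.03% of all genes tested). Of these, 4 were the keratins Krt7, Krt8, Krt18 and Krt19, which the urothelium and ducts also make. The 4 keratins had no read in lymph node, so that the filter set their direction. Havcr1, the injury molecule KIM-1, was higher in TLS (log2 fold change 2.47, adjusted p = 0.0172, and 0.0589 with the replicate block), as was Krt8, which had values of 170, 81.7 and 170 in TLS of mice H115, H20 and H6. Cd24a and Vim were not DE.

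**Figure D2:**
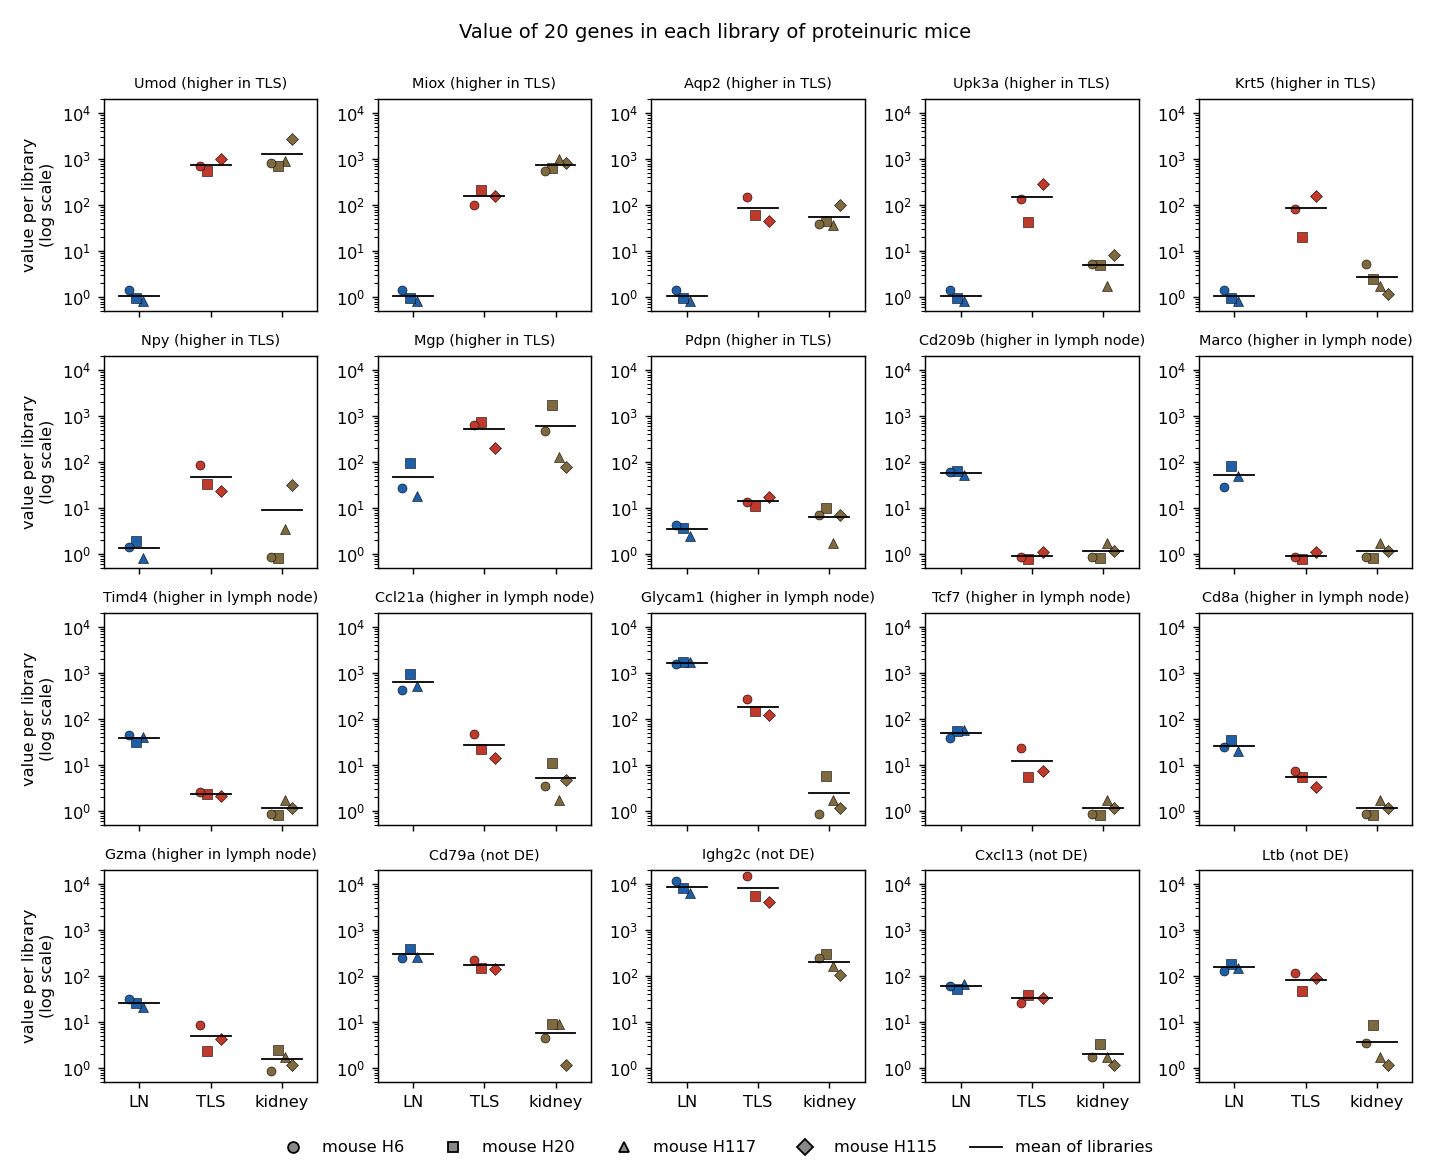
Deposited values (vertical axis, log scale) of 20 genes in each lymph node (LN), TLS and kidney library, 1 point per library with the mouse as the symbol and the mean as a line. Umod and Miox are without a read in lymph node and highest in kidney by their mean, Upk3a and Krt5 are highest in TLS, and Cd209b and Marco are without a read in TLS.

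Genes of the urinary tract lining stood apart from the tubule genes in that kidney did not hold them at the same level. In all, 81 genes were DE with a TLS mean above those of both lymph node and kidney, and for 37 of these the kidney mean was under 50% of the TLS mean (31 genes without kidney of mouse H117). Upk3a, a uroplakin of the surface plaques of urothelium (ENSMUSG00000022435, chr15:85017141-85022547), had values of 284, 43.2 and 135 in TLS of mice H115, H20 and H6. It had no read in lymph node and between 1.77 and 8.11 in kidney. All TLS libraries were above all kidney and lymph node libraries, and TLS was at least 35.2-fold higher than lymph node (adjusted p = 0.000318). Psca, a surface antigen of such linings, had 203, 48.7 and 152 in TLS against 1.77 to 12.8 in kidney and was at least 30.7-fold higher than lymph node (adjusted p = 6.98e-05).

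Keratins marked the layers of this lining. Krt5 of basal cells had values of 157, 20.4 and 80.6 in TLS of mice H115, H20 and H6, between 1.16 and 5.31 in kidney, and no read in lymph node. Krt14 (at least 10.0-fold) and Krt15 (at least 16.2-fold) followed the same order of the TLS libraries. Krt18 and Krt19 of simple and ductal epithelium were at least 20.0-fold and 18.4-fold higher in TLS than in lymph node. Of 8 keratins tested, 7 were higher in TLS (against 6.03% of all genes tested), with a median log2 fold change of 4.80 (4.11 at the bound). All 8 stayed at 3 reads or fewer in each lymph node, so that the filter set their direction. Of 11 urothelium genes in the table, Upk3b and Gata3 were under the filter. The 9 that passed were DE toward TLS (median 4.62, and 4.02 when set to the bound), but none exceeded 3 reads in a lymph node, so that the filter set their direction. The summed value of the list was 1108, 208 and 587 in TLS of mice H115, H20 and H6, between 10.4 and 15.9 in lymph node, which is about the value that no read gives, and between 19.5 and 90.2 in kidney. The order of the TLS libraries was not that of the proximal tubule sum, where mouse H20 was above mouse H6.

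Of the 37 genes, 9 were urothelium genes, 6 were keratins (3 of them in the urothelium list) and 21 were in no list or family. Npy, the neuropeptide Y of sympathetic and other neurons (ENSMUSG00000029819, chr6:49822710-49829507), had values of 24.0, 33.8 and 88.2 in TLS of mice H115, H20 and H6. In lymph node it had at most 1 read in a library, and TLS was at least 11-fold higher (adjusted p = 0.000386). In kidney it had 31.3 in mouse H115 and 3.55, 0.844 and 0.884 in mice H117, H20 and H6, so that kidney and TLS overlapped through mouse H115. Plet1, a membrane protein of epithelia, had 76.3, 43.2 and 86.5 in TLS and 1.77 to 26.7 in kidney, and Gsta4, a glutathione transferase, had 250, 51.9 and 112 in TLS and 42.6 to 84.6 in kidney. Cbr2, a carbonyl reductase, had 97.0, 18.9 and 67.0 in TLS and at most 4.42 in kidney (log2 fold change over lymph node 3.56 ± 0.81, SE, adjusted p = 0.0415). The rest of the 21, among them the mucin Muc1 (adjusted p = 0.0714 with the replicate block), mesothelin (Msln), the antimicrobial lectin Reg3g and the gasdermins Gsdmc2 and Gsdmc3, are named here after their values were seen.

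Among genes of stroma, 2 of the fibroblast and matrix list were DE. Mgp, an inhibitor of calcification in vessel walls and cartilage, had values of 202, 732 and 628 in TLS of mice H115, H20 and H6 and of 18.6, 94.7 and 27.5 in lymph node of mice H117, H20 and H6 (log2 fold change 3.59 ± 0.69, SE, adjusted p = 0.0107). Timp3, a metalloproteinase inhibitor held in basement membranes, had 52.3, 47.9 and 30.5 in TLS and 2.43, 4.74 and 1.45 in lymph node (3.58 ± 0.40, SE, adjusted p = 0.000361), and kidney lay above TLS at 109 to 167. These were the 2 DE genes among 16 fibroblast and matrix genes, whose median was 0.42 toward TLS. Of 9 collagens, 1 was DE, Col18a1 of basement membranes (at least 4.50-fold). None of 7 smooth muscle genes was DE. Acta2, the smooth muscle actin, had 41.4, 74.7 and 56.8 in TLS and 12.1, 32.2 and 5.80 in lymph node, which did not overlap (log2 fold change 1.99 ± 0.54, SE, adjusted p = 0.0527). Lists of this size cannot be set apart from the 7.28% called over all genes tested. None of 8 endothelial genes was DE, and Pecam1 and Plvap overlapped between the tissues.

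Receptors of sinus and marginal macrophages were higher in lymph node. Cd209b encodes SIGN-R1, a lectin that binds bacterial and blood-borne sugars (ENSMUSG00000065987, chr8:3917655-3926844). Its values were 51.8, 63.5 and 60.9 in lymph node of mice H117, H20 and H6 (58.7 ± 6.13, SD, n = 3), and no TLS library had a read. This made lymph node at least 17.6-fold higher (adjusted p = 1.28e-05). Marco, a scavenger receptor for bacteria and particles (ENSMUSG00000026390, chr1:120474538-120505024), had 50.2, 81.5 and 29.0 in lymph node and no read in TLS (at least 16-fold, adjusted p = 7.01e-05). Kidney had no read of Marco either. The Cd209 genes are close relatives, between which the counting could split reads.

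Timd4, a receptor for phosphatidylserine on dying cells, had values of 40.5, 31.3 and 44.9 in lymph node of mice H117, H20 and H6, and at most 2 reads in a TLS library (at least 11.6-fold, adjusted p = 8.45e-05). Cd5l, a secreted inhibitor of macrophage apoptosis also known as AIM, had 42.9, 62.5 and 46.4 in lymph node and 3.27, 3.93 and 11 in TLS of mice H115, H20 and H6 (log2 fold change 3.01 ± 0.43, SE, adjusted p = 0.00172). Siglec1, the sialoadhesin of subcapsular macrophages, had 23.5, 15.2 and 5.80 in lymph node and at most 1 read in a TLS library. These 5 of the 7 sinus and marginal macrophage genes tested were higher in lymph node, against 1.25% of all genes tested. However, Cd209b, Marco, Timd4 and Siglec1 did not exceed 3 reads in any TLS library, so that the filter set their direction. Cd5l had 3.44 to 11.6 in the 4 lymph node libraries of other stages, which overlapped with TLS. Clec10a and Nr1h3 had log2 fold changes of 1.48 and 1.16 that were not DE. The list had a median of 3.01, also with 4 genes at their lower bound. Of the genes of this list below the filter, Cd209d and Stab2 had no read in TLS, which allows a value of up to 2.36 to 3.27 in a TLS library. The others below the filter, Cd209f, Mrc1 and Stab1, did have reads in TLS.

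Macrophage genes as a whole did not share this size. Of 16 tissue macrophage genes tested, 1 was DE, Lyz1, with values of 25.1, 30.3 and 17.4 in lymph node of mice H117, H20 and H6 and 2.18, 2.36 and 6.78 in TLS of mice H115, H20 and H6. Its near-identical neighbour Lyz2 had 1306, 1398 and 1856 in lymph node and 424, 515 and 609 in TLS (log2 fold change 1.56, adjusted p = 0.112), and the counting could split reads between the genes. The list had a median of 0.75 toward lymph node. Folr2, the folate receptor of resident macrophages, was higher in lymph node by at least 4.23-fold, and Fcgr4, the activating receptor for IgG2, had 163, 152 and 126 in lymph node and 39.3, 39.3 and 61.0 in TLS (log2 fold change 1.66, adjusted p = 0.03, and 0.0553 with the replicate block). The direction of Fcgr4 turned with all 7 lymph node libraries of the series, to a log2 fold change of -0.35 (adjusted p = 0.868). Mfge8, which bridges dying cells to phagocytes, had 299, 260 and 178 in lymph node against 61.1, 51.1 and 79.7 in TLS (1.92, adjusted p = 0.0231).

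Ccl21a and Glycam1 were also higher in lymph node. The former encodes CCL21, the chemokine of the T-cell zone stroma and of high endothelial venules (ENSMUSG00000094686, chr4:42772860-42773993). Its values were 535, 930 and 419 in lymph node of mice H117, H20 and H6 and 14.2, 22.8 and 46.6 in TLS of mice H115, H20 and H6. The lowest lymph node was far above the highest TLS, and the log2 fold change was 4.52 ± 0.54 (SE, adjusted p = 0.000492). Near-identical copies of Ccl21a exist in the mouse, so the value may not be that of 1 gene. Kidney had 1.77 to 11.

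Glycam1, a mucin-like glycoprotein made by high endothelial venules (ENSMUSG00000022491, chr15:103562759-103565081), had values of 1765, 1699 and 1600 in lymph node of mice H117, H20 and H6 (1688 ± 83.2, SD, n = 3). In TLS of mice H115, H20 and H6 it had 125, 152 and 272, and in kidney at most 5.90. TLS was therefore lower than lymph node (log2 fold change 3.27 ± 0.52, SE, adjusted p = 0.00317) and above all 4 kidney libraries. Lyve1 of lymphatic endothelium had 13.8, 15.2 and 5.80 in lymph node and at most 1 read in a TLS library (at least 3.21-fold, adjusted p = 0.0628 with the replicate block). Pdpn, made by lymphatic endothelium, by lymph node fibroblasts and by several epithelia, went the other way, with 17.5, 11 and 13.6 in TLS and at most 3 reads in a lymph node library. Of the 4 high endothelial venule and lymphatic genes tested, 2 were thus higher in lymph node and 1 in TLS, and the median was 0.64 toward lymph node (0.26 at the bound).

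The other organizing signals were not DE. Cxcl13, the chemokine of B-cell follicles, had values of 65.5, 52.1 and 60.9 in lymph node of mice H117, H20 and H6 and 32.7, 39.3 and 26.3 in TLS of mice H115, H20 and H6. These did not overlap, and the log2 fold change of 0.85 ± 0.35 (SE) did not pass the test (adjusted p = 0.191). Ltb, the membrane-bound lymphotoxin, had 152, 183 and 129 in lymph node and 90.5, 47.2 and 114.5 in TLS (adjusted p = 0.285). Ltbr, its receptor on stroma, had 8.90, 10.4 and 15.9 in lymph node and 21.8, 16.5 and 21.2 in TLS, with a log2 fold change of 0.74 toward TLS (adjusted p = 0.263) and 30.4 to 59.2 in kidney. Ccl19 overlapped (120, 154 and 174 against 33.8, 61.3 and 153, adjusted p = 0.303), as did the adhesion molecules Vcam1 (adjusted p = 0.994) and Icam1 (adjusted p = 0.445).

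Among the 11 lymphoid chemokine and lymphotoxin genes tested, Ccl21a alone was DE, with a median of 0.85 toward lymph node. Tnfsf11, the cytokine RANKL, was below the filter and had no read in TLS. Of 21 chemokines by symbol, Ccl21a, Xcl1 and Ccl6 were higher in lymph node (Ccl6 with adjusted p = 0.0748 with the replicate block) and Cx3cl1 in TLS (at least 4.19-fold). Xcl1 draws cross-presenting dendritic cells and had 13.8, 17.0 and 15.9 in lymph node against 3.27, 0.786 and 5.09 in TLS. Of 8 chemokine receptors none was DE, and Ccr7, the receptor for CCL21 and CCL19, had 39.7, 39.8 and 42.0 in lymph node and 12, 7.86 and 26.3 in TLS (log2 fold change 1.5 ± 0.42, SE, adjusted p = 0.0611).

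T-cell genes were higher in lymph node. Of 17 tested, 8 were DE and higher in lymph node (against 1.25% of all genes tested), none was DE toward TLS, and 15 did not overlap between the tissues (against 24.5%). With the replicate block 2 of the 8, Cd8a and Zap70, were DE. The median log2 fold change was 1.53. Cd8a, the coreceptor of cytotoxic T cells (ENSMUSG00000053977, chr6:71373427-71379173), had values of 20.2, 35 and 24.6 in lymph node of mice H117, H20 and H6 and 3.27, 5.50 and 7.63 in TLS of mice H115, H20 and H6 (log2 fold change 2.12 ± 0.38, SE, adjusted p = 0.0065). Cd8b1, the other chain of that receptor, had 23.5, 32.2 and 33.3 against 4.36, 7.86 and 15.3 (adjusted p = 0.0737 with the block). Trbc2, a constant region of the T-cell receptor beta chain, had 232, 217 and 214 against 55.6, 47.9 and 102 (1.75 ± 0.44, SE, adjusted p = 0.0384, and 0.0799 with the block). Zap70 and Lat of receptor signalling, Cd2, Cd3e and Trbc1 were the other DE genes, of which all but Zap70 lost the call with the block (adjusted p 0.0631 to 0.119), and Cd4 had a log2 fold change of 0.91 (adjusted p = 0.29). Summed over the list, the value was 973 to 1040 in lymph node and 243, 302 and 522 in TLS of mice H115, H20 and H6.

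Of all genes tested, 1.25% were DE and higher in lymph node. Of 8 genes of naive and recirculating lymphocytes, 3 were higher in lymph node, among them Klf2 and Tcf7. Tcf7, a factor of naive and memory T cells, had values of 58.3, 54.9 and 39.1 in lymph node of mice H117, H20 and H6 and 7.63, 5.50 and 23.7 in TLS of mice H115, H20 and H6. Of 4 cytotoxic genes tested, Gzma (granzyme A) and Ctsw (cathepsin W) were higher in lymph node, Gzma with 21.0, 25.6 and 31.9 against 4.36, 2.36 and 8.48, and Ctsw with adjusted p = 0.0718 with the replicate block. In both lists TLS of mouse H6 was the highest of the TLS libraries. It was also the highest of the TLS libraries for 61 of the 89 genes higher in lymph node, and had the lowest kidney percentages.

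The general leukocyte signal moved with these groups. Summed over 10 pan-leukocyte genes, the value was 1661 to 1732 in lymph node and 779, 647 and 1150 in TLS of mice H115, H20 and H6, and none of the 10 was DE (median log2 fold change 1.06 toward lymph node). Scaling each library to these genes instead moved the median of all genes tested from 0.14 to -0.79, toward TLS, so the genes higher in TLS could only gain. Of the 89 higher in lymph node, 16 were still DE. The 16 included Cd209b, Marco, Timd4, Cd5l, Siglec1, Ccl21a, Glycam1, Cd8a, Lyz1 and Gzma. Under that scaling the T-cell list had 1 DE gene (Cd8a) and a median of 0.58, while the sinus macrophage list had 5 DE genes and a median of 2.09, both against -0.79 for all genes. What part the share of leukocyte RNA plays in the T-cell difference was not tested further.

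**Figure D3:**
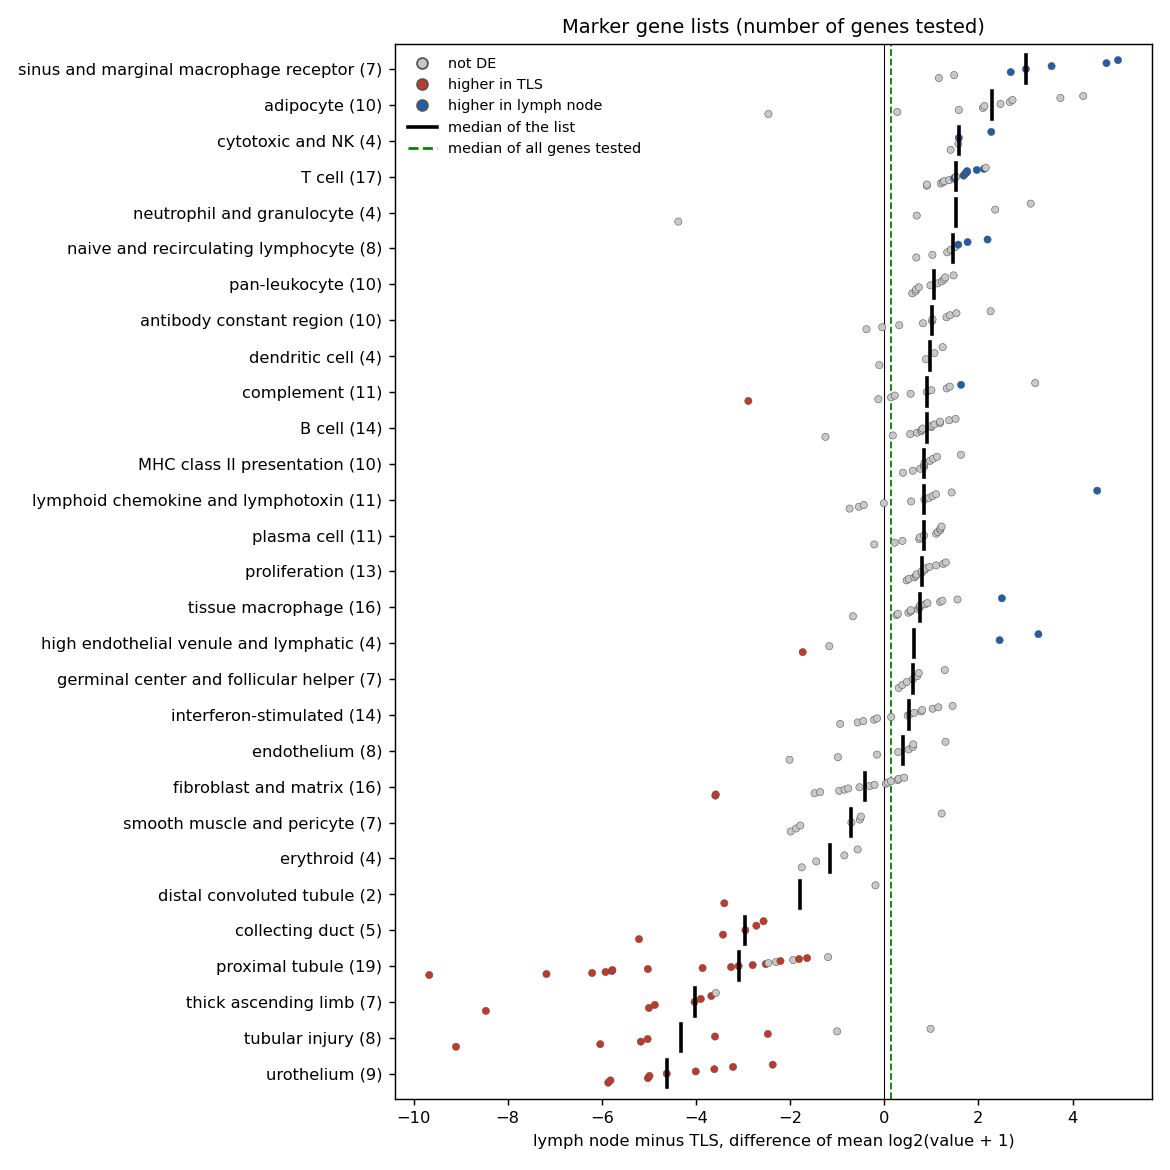
Log2 difference between lymph node and TLS (horizontal axis, negative where TLS is higher) of each tested gene of the marker lists (vertical axis, with the number of genes), 1 point per gene, DE genes in colour, and the median of each list as a bar beside that of all genes (0.14, dashed). The urothelium, tubular injury and thick ascending limb lists lie furthest toward TLS and the sinus and marginal macrophage list furthest toward lymph node, while the B-cell and plasma cell lists have no DE gene.

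B-cell, plasma cell and antibody constant region genes did not pass the test. Of all genes tested, 7.28% were DE. None of 14 B-cell genes was DE (median 0.90 toward lymph node), and the nearest was Fcer2a, the low-affinity IgE receptor CD23, with values of 43.7, 39.8 and 20.3 in lymph node of mice H117, H20 and H6 and 5.45, 13.4 and 17.0 in TLS of mice H115, H20 and H6 (adjusted p = 0.0795). None of 11 plasma cell genes was DE (median 0.84), and the joining chain gene, listed as Igj, overlapped (802, 836 and 1607 against 559, 971 and 889). None of 10 antibody constant region genes was DE (median 1.02). Ighg2c had 6340, 8220 and 11720 in lymph node and 3966, 5344 and 14910 in TLS, which overlapped. Under the pan-leukocyte scaling the medians of the B-cell and plasma cell lists were -0.10 and -0.12 and that of the constant regions 0.01, against -0.79 for all genes tested. Of 217 variable and joining segments, Igkv4-62, Igkj1, Ighv1-83 (adjusted p = 0.0673 with the replicate block) and Igkv14-130 were higher in lymph node, the last with 210, 18.9 and 220 against at most 5.50 in TLS.

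The ratio of the summed B-cell to the summed T-cell value was 4.38, 1.96 and 1.85 in TLS of mice H115, H20 and H6 and 1.18, 1.47 and 0.948 in lymph node of mice H117, H20 and H6. All TLS libraries were above all lymph node libraries in this ratio, which does not depend on the scaling of a library. Other ratios were also computed. Tissue macrophage over B cell was 1.59 to 3.1 in TLS and 3.15 to 4.31 in lymph node. Fibroblast and matrix over pan-leukocyte was 0.731 to 2.17 in TLS and 0.132 to 0.289 in lymph node. Plasma cell over B cell overlapped between the tissues. The ratios of summed lists were not tested. Among reads of heavy-chain constant genes, Ighg2c took 50.7% ± 4.16 in TLS and 35.8% ± 2.52 in lymph node, and Ighg3 took 16.3% ± 0.656 and 26.9% ± 3.52 (SD, n = 3). For both shares an exact two-sided permutation test gave p = 0.1, the smallest that 3 against 3 libraries allow (0.35 when adjusted over 7 shares).

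**Figure D4:**
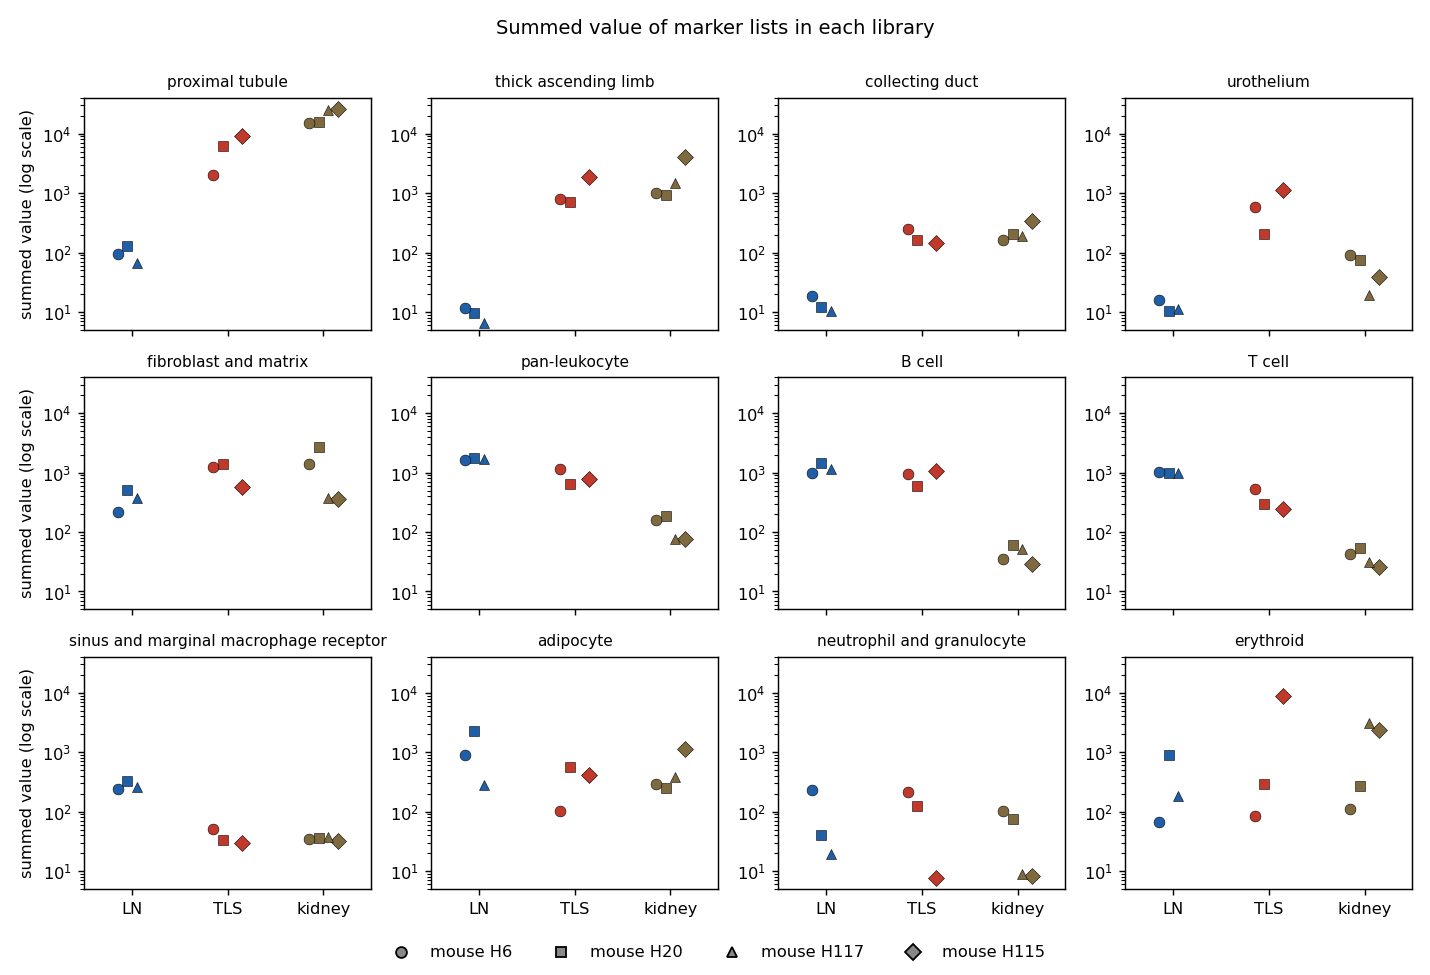
Summed values (vertical axis, log scale) of 12 marker lists in each lymph node (LN), TLS and kidney library, 1 point per library with the mouse as the symbol. The proximal tubule sum of TLS lies between those of lymph node and kidney, the urothelium sum is highest in TLS, the T-cell and sinus macrophage sums are highest in lymph node, and the adipocyte and erythroid sums overlap between the tissues.

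Other immune programs did not differ past the threshold, which 7.28% of all genes tested passed. None of 10 genes of MHC class II presentation was DE (median 0.85), Cd74 having 2757, 2967 and 2558 in lymph node of mice H117, H20 and H6 and 1254, 1143 and 2452 in TLS of mice H115, H20 and H6. None of 14 interferon-stimulated genes (median 0.52), of 13 proliferation genes (0.80), of 7 germinal center and follicular helper genes (0.61) or of 4 dendritic cell genes (0.98) was DE. All 13 proliferation genes and all 7 germinal center genes had their mean toward lymph node. Under the pan-leukocyte scaling these 5 medians were -0.13, -0.47, -0.10, -0.33 and -0.02, against -0.79 for all genes tested. The 83 ribosomal protein genes all had their mean toward lymph node, with a median of 0.70 and no DE gene, and a median of -0.31 under that scaling. In the complement list Cd55, which protects cells from complement, was higher in lymph node (1.63, adjusted p = 0.0133).

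Lists of other cells varied between single libraries. Hemoglobin and other erythroid genes summed to 8751 in TLS of mouse H115 and to 288 and 84.8 in TLS of mice H20 and H6, and to 185, 900 and 68.1 in lymph node of mice H117, H20 and H6. Adipocyte genes summed to 278, 2267 and 891 in lymph node of mice H117, H20 and H6 and to 411, 573 and 101 in TLS of mice H115, H20 and H6, of which Pck1, also a proximal tubule gene, made up 322 in mouse H115 (89.4, 520 and 60.2 without it). Their median of 2.30 toward lymph node came without a DE gene. Fabp4, the fatty acid carrier of adipocytes, had 1544 in lymph node of mouse H20 and 130 and 523 in those of mice H117 and H6. Neutrophil genes summed to 19.4, 39.8 and 230 in lymph node and to 7.63, 125 and 218 in TLS. In TLS of mice H20 and H6 most of the sum was Lcn2 (119 and 202), which had 2.18 in TLS of mouse H115. Lcn2 had no read in lymph node and reached 96.4 in kidney. Without Lcn2 the sums were between 18.6 and 229 in lymph node and 5.45, 6.32 and 16.1 in TLS. S100a8 had no read in TLS, and S100a9 had 136 in lymph node of mouse H6 and at most 6.78 in TLS. No gene of the 3 lists was DE, and their part in the other differences was not tested.

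The 4 lymph node libraries of other stages were set against the TLS libraries without a test. They were 3 of antibody-positive mice (28, 29 and 18 weeks) and 1 labelled young (4 weeks), so age differed as well as stage. Their values were not used to call the genes. All 4 were below all 3 TLS libraries for 409 of the 429 genes higher in TLS, and above them for 68 of the 89 higher in lymph node. The same TLS libraries had chosen these genes, so the counts are a description. Cd209b had 51.4 to 179 in these libraries, Marco 75.2 to 136, Timd4 55.2 to 97.5, Ccl21a 788 to 907 and Glycam1 1714 to 2877. Cd5l (3.44 to 11.6), Saa3 (0.927 to 8.05) and Fcgr4 (5.56 to 20.0) were lower there than in the lymph nodes of proteinuric mice. Of these, Cd5l overlapped with TLS, and Fcgr4 was below all TLS libraries. The antibody-positive lymph nodes had their RNA isolated with another kit.

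With each of the 6 libraries left out in turn, 220 of the 429 genes higher in TLS and 10 of the 89 higher in lymph node were DE every time. The 10 were Marco, Cd5l, Ccl21a, Cd8a, Cd209b, Lyz1, Timd4, Gzma, Glycam1 and Lrg1, a secreted glycoprotein of vessels and liver. Lrg1 had values of 36.4, 47.4 and 31.9 in lymph node of mice H117, H20 and H6 and 3.27, 6.29 and 10.2 in TLS of mice H115, H20 and H6. Without TLS of mouse H6, 178 genes were higher in lymph node, and without lymph node of mouse H117, 29 were. Without both libraries with many ribosomal RNA reads, 345 genes were DE toward TLS and 37 toward lymph node.

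**Figure D5:**
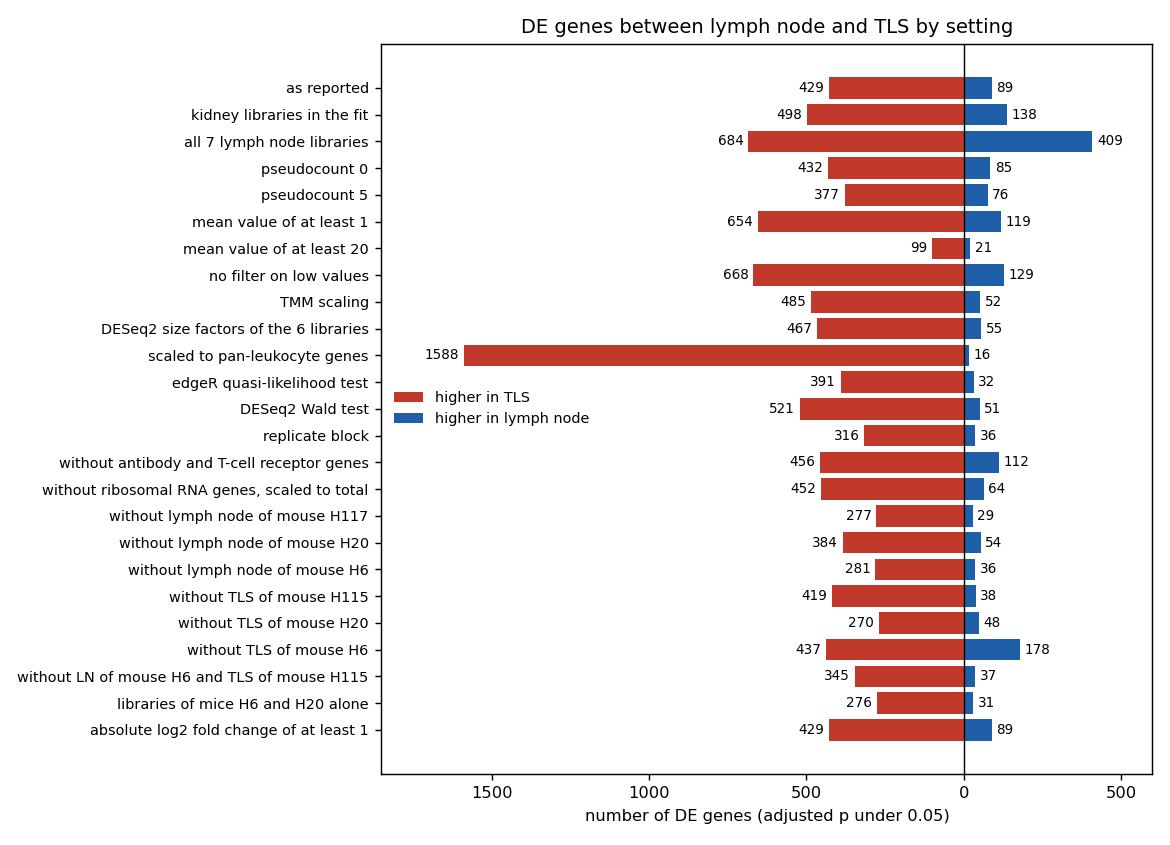
Number of DE genes (horizontal axis) higher in TLS (bars to the left) and higher in lymph node (bars to the right) under each setting (vertical axis). The bars of TLS are longer under all settings shown, and those of lymph node range from 16 under the pan-leukocyte scaling to 409 with all 7 lymph node libraries.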

How the data were processed

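The authors isolated RNA of these lymph nodes, TLS and kidneys with TRIzol, read its poly(A) fraction on an Ion Torrent PGM instrument, and, with CLC Genomics Workbench 8 at its defaults, trimmed the reads, mapped them to GRCm38 and counted them per gene. Whether the counting used strand is not given in the sources used here, so a gene and its antisense partner cannot be told apart. The deposited table holds a signal per gene and library, which is 1 more than the read count, over the size factor that DESeq gives each library. Multiplied by this factor, 100% of the values were whole within 1e-06, and factors recomputed from the reads plus 1 differed by at most 4.2e-15. The submitters' processing notes also name tools and a build of the whole-kidney set of the series, which was not used here.

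Genes whose mean over the 6 libraries reached 5 were tested with limma 3.58.1 (trend and robust moderation, R 4.3.3) on log2(value + 1), a scale on which changes of genes with few reads are understated, at a Benjamini-Hochberg adjusted p under 0.05. Where a tissue had at most 3 reads in each library, the fold is a lower bound, for which that tissue was set to 3 reads in the library where 3 reads are worth most. Such bounds cover counting error only. Gene positions are from GENCODE M21 (GRCm38), and 6843 of the 7112 genes had an Ensembl identifier. Sequences are from RefSeq (GRCm38.p6), of which 4970 genes tested were matched. The test was first tested on simulated data.

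The rule named 223 genes, of which a few are not reported here. It took, per direction, the 15 non-overlapping DE genes with the largest fold change and the 8 with the highest mean. It added 15 DE genes higher in TLS with a kidney mean under 50% of the TLS mean, 10 higher in lymph node with kidney above TLS, up to 4 genes of each list or family with the smallest adjusted p and that with the highest mean, and 12 genes that the study names for TLS. Other genes in the text, such as Havcr1, Cubn, Slc5a2, Cyp2e1, Egf, Cd24a, Vim, Cd4, Cd3e, Trbc1, Lat, Clec10a, Nr1h3, Cd209d, Stab2, Upk3b, Gata3, Lcn2 and S100a8, were chosen after their values were seen. The genes and lists were chosen with earlier results of these data known.

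Alternatives were other filters, pseudocounts, scalings (TMM, DESeq2 size factors, pan-leukocyte genes), count models fitted to the recovered reads with edgeR 4.0.16 and DESeq2 1.42.0, leaving out each library, the kidney libraries in the fit, all 7 lymph node libraries, and leaving out antibody and T-cell receptor genes or ribosomal RNA genes. Leaving out both libraries with many ribosomal RNA reads, using mice H6 and H20 alone, leaving kidney of mouse H117 out of the kidney mean, and setting the 4 lymph node libraries of other stages beside the TLS libraries were chosen after seeing the data. Libraries with the same mouse number came from the same mouse. The correlation of their deviations from the tissue means was 0.024 for mouse H20 and -0.271 for mouse H6, against -0.212 to 0.298 for different mice.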

Additional observations from a re-analysis of the deposited data

Results flagged for a closer look

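The summed value of the adipocyte genes was 1149 in kidney of mouse H115, and 254.7 to 378.1 in the other 3 kidney libraries. Its gap to the nearest library was large against the range of the group (Dixon's test at the 95% level, 4 libraries), which chance gives in about 1 of 20 such groups. The same check was run on the kidney sums of all marker lists and of some families, and this sum alone was flagged. With that many checks, chance can give such a flag. Of this sum, 1019 came from Pck1, which is in the adipocyte and the proximal tubule list. The groups of 3 lymph node and 3 TLS libraries are too small for this test.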

How the results depend on the processing

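TLS held most DE genes under all settings run. The total of 518 genes became 1093 (684 in TLS, 409 in lymph node) with all 7 lymph node libraries, 120 (99 and 21) with a mean value of at least 20, 797 (668 in TLS) without a filter, 1604 (1588 and 16) when scaled to pan-leukocyte genes and 307 (276 and 31) with mice H6 and H20 alone, and 654 were in TLS with a mean value of at least 1. The 89 genes higher in lymph node became 138 with the kidney libraries in the fit, 52 with TMM scaling, 55 with DESeq2 size factors, 32 with the edgeR quasi-likelihood test, 51 with the DESeq2 Wald test, 36 with the replicate block and 37 without lymph node of mouse H6 and TLS of mouse H115. TLS thus held 90.3% of the DE genes with TMM, 92.4% with edgeR and 99% with pan-leukocyte scaling, which moved the median of all genes by more than the others, from 0.14 to -0.79 (TMM, -0.01). The cause was not tested. Leaving out 1 library gave 306 to 615 DE genes, 270 to 437 in TLS and 29 to 178 in lymph node, the lowest totals without lymph node of mouse H117 (306), lymph node of mouse H6 (317) or TLS of mouse H20 (318) and the highest without TLS of mouse H6 (615). With the kidney of the same mouse, the median kidney percentage was 35.2 in mouse H115 and 39.2 in mouse H20, and without kidney of mouse H117 it was 50.6, 27.0 and 16.2 in mice H115, H20 and H6. Of the named DE genes, Fcgr4 alone reversed, to -0.35 with all 7 lymph node libraries, and 24 that were not DE changed sign under pan-leukocyte scaling. The replicate block changed the call of 19 of the 223 named genes, all to not DE. Genes under the mean of 20, and antibody and T-cell receptor genes where these were left out, had no value there. Values of 3 reads or fewer limit the genes with low counts.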
